A study of Mus musculus with 6 samples.

Results

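Microglia are the resident macrophages of the brain, and the transcripts that mark them were examined in brainstems of wild type and Rag1-/- mice. The list held 36 genes, chosen by gene symbol for their roles in microglia and related macrophages, and all 36 were found among the 18058 genes of the deposited table with a mean of at least 0.1 CPM (the unit of the table, gene counts scaled to library size). They were divided by role into 14 homeostatic genes, 12 myeloid signalling genes, 4 lysosomal genes, 2 border macrophage genes and 4 activation genes. Total RNA had been sequenced from snap-frozen brainstems of 3 naïve C57BL/6J mice (WT) and 3 naïve Rag1-/- mice of the strain B6.129S7-Rag1tm1Mom/J, all 1 month old. Each library was taken as 1 independent mouse. The Rag1-/- allele is a germline deletion in the recombinase that assembles antigen receptor genes, so these mice lack mature T and B cells but keep their myeloid cells, and neither genotype had received cells or any other treatment. The comparison of the genotypes asks whether the brainstem of a mouse without mature T and B cells differs in its microglial transcripts from that of a WT mouse.

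Microglia depend on the receptor Csf1r and its ligands for survival and on TGF-beta signalling for their mature identity. In the resting brain they express sensors of the surrounding tissue such as the purinergic receptor P2ry12 and the fractalkine receptor Cx3cr1, and they clear debris through phagocytic receptors and lysosomal proteases. Near amyloid, damaged myelin or other injury the homeostatic transcripts are lowered and activation genes such as Itgax, Cst7 and Axl are raised, while macrophages of the meninges and perivascular spaces are marked by Mrc1 and Cd163.

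Promoters of the microglia genes are shown for the GAGGAAG core that the myeloid transcription factor PU.1 recognises, because genes of different roles share it. Promoter windows of 300 bases (250 before to 50 after the start) were available from RefSeq for 30 of the 36 genes, in 36 windows, on the GRCm38.p6 assembly, and 8 short motifs were searched on both strands. The sequence GAGGAAG was present in 17 of the 36 windows (47.2%), compared with 13.6% of all 32851 windows of the same length. The 15 genes with a match were Axl, Cd33, Cd53, Ctss, Cyth4, Fcgr3, Fcrls, Inpp5d, Itgam, Laptm5, Mrc1, P2ry13, Slco2b1, Tgfbr1 and Trem2, which come from all 5 role groups. The promoters of 4 genes of 3 role groups were chosen among the matches after these were seen and are printed here from 250 bases before the start up to the start, in 5′ to 3′ order of the gene's own strand, with the match in capitals (GAGGAAG, or CTTCCTC where it lies on the opposite strand).

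P2ry13: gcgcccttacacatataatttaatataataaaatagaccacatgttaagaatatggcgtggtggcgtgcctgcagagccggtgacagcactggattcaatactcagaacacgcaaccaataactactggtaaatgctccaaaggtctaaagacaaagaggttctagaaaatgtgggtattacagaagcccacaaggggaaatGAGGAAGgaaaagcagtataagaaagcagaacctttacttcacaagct
Fcrls: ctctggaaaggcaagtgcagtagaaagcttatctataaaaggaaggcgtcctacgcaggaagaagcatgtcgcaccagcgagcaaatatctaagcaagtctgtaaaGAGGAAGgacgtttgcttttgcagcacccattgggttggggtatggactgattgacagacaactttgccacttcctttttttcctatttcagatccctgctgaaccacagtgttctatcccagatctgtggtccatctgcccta
Trem2: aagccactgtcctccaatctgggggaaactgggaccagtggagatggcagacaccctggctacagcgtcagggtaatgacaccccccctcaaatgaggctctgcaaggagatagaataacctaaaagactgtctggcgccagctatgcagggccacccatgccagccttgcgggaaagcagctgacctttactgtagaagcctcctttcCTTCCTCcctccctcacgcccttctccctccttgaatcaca
Laptm5: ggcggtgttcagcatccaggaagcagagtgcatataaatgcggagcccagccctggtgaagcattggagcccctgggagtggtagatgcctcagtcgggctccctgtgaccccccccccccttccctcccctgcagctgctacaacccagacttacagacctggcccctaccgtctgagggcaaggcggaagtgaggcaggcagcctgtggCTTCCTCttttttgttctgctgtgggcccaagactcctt

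The P2ry13 window lies at chr3:59210883-59211132 on the minus strand, and its match begins 48 bases before the start. For Fcrls (chr3:87263525-87263774, minus strand) the match begins 144 bases before the start, whereas for Trem2 (chr17:48346151-48346400, plus strand) and Laptm5 (chr4:130913066-130913315, plus strand) a match on the opposite strand begins 41 and 39 bases before it. The longer GAGGAAGT was found in 5 member windows (13.9%, against 3.20% of all windows), AGGAAGT in 11 (30.6%, against 9.35%) and ACAGGAAG in 6 (16.7%, against 3.58%). The shorter TTCCTC, whose opposite strand is contained in every GAGGAAG match, was found in 21 (58.3%, against 28.3%). In contrast, the GC box GGGCGG was present in 11 windows (30.6%, against 35.7%), the TATA element TATAAA in 3 (8.33%, against 13.6%) and the AP-1 element TGAGTCA in 3 (8.33%, against 5.20%). Several of these motifs overlap each other, and these shares describe sequence only.

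Estimated depth was 34800000 to 46400000 reads in the WT libraries and 31600000 to 35100000 reads in the Rag1-/- libraries, so that 3 reads correspond to 0.0646 to 0.0951 CPM. Transcripts of Rag1 itself reached 2.60, 4.02 and 2.90 CPM in replicates 1, 2 and 3 labelled Rag1-/-, above the 0.236, 0.388 and 0.115 CPM of WT brainstems (log2 fold change 3.30, adjusted p = 0.0120), so that directions given for the Rag1-/- libraries rest on their labels. The libraries also differed in sex-linked transcripts: Xist measured 172 and 177 CPM for WT replicates 1 and 2, 2.93 CPM for WT replicate 3 and 0.462 to 0.738 CPM for the Rag1-/- libraries, and the Y-linked Ddx3y was low in the first 2 and at 45.2 to 56.2 CPM in the other 4. Thus WT replicate 3 alone matched the Rag1-/- libraries in these transcripts, and sex and genotype cannot be fully told apart. Brainstem markers varied between libraries of both genotypes, with Tph2 between 12.3 and 58.0 CPM in the Rag1-/- libraries and Slc6a5 between 15.4 and 40.9 CPM in WT and between 8.30 and 38.1 CPM in Rag1-/-, and the T cell marker Cd3e, chosen after its values were seen, was at 0.144 CPM or less in every library. Of the 16762 genes tested, 67.7% had a log2 fold change below 0 as scaled in the deposited table, with a median of -0.051.

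None of the 36 microglia genes passed an adjusted p under 0.05 (limma-trend on log2(CPM + 0.1), Benjamini-Hochberg over all genes tested), a threshold that 0.0477% of all genes passed. Before adjustment, 3 of the 36 (8.33%) had a limma-trend p of at most 0.05, beside 11.6% of all genes: Ctss and Lyz2 were lower in the Rag1-/- brainstems and Cd9 was higher. A log2 fold change below 0 was found for 23 members and above 0 for 13, beside 67.7% of all genes below 0. The log2 fold changes of the members ran from -0.40 for Lyz2 to 0.19 for P2ry12 and their adjusted p values from 0.372 to 0.997. Their median log2 fold change was -0.028 on the deposited scale but 0.016 after quantile normalization and 0.017 after median-of-ratios rescaling, so the module as a whole had no direction that held across scalings, and the median of all genes moved with it, to 0.0020 and -0.0059. Summed over the 36 genes, the level was 617, 661 and 621 CPM for WT replicates 1, 2 and 3 (633 ± 24.1, mean ± SD, n = 3) and 622, 654 and 609 CPM in the Rag1-/- replicates (628 ± 23.4, n = 3). The 2 ranges overlapped almost completely. In bulk tissue, fewer microglia and less RNA in each of them cannot be told apart.

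The precision of these differences was high for most members. The 95% interval of the fold change lay within 1.5-fold in either direction for 32 of the 36 genes (77.2% of all genes tested) and within 2-fold for 35 (91.8%). Lyz2, Cd163, Itgax and Cst7 were the 4 genes whose interval reached past 1.5-fold, and Itgax was the 1 gene whose interval reached past 2-fold. Cst7 had a mean of 0.107 CPM, at 2 to 6 reads in a library. The 0.1 CPM added before the log is close to that mean and narrows its interval. No member was lower in every Rag1-/- library than in every WT library, a separation shown by 14.4% of all genes, and 2 members, Fcrls and Cd9, were higher in every one, shown by 3.98%.

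**Figure D1:**
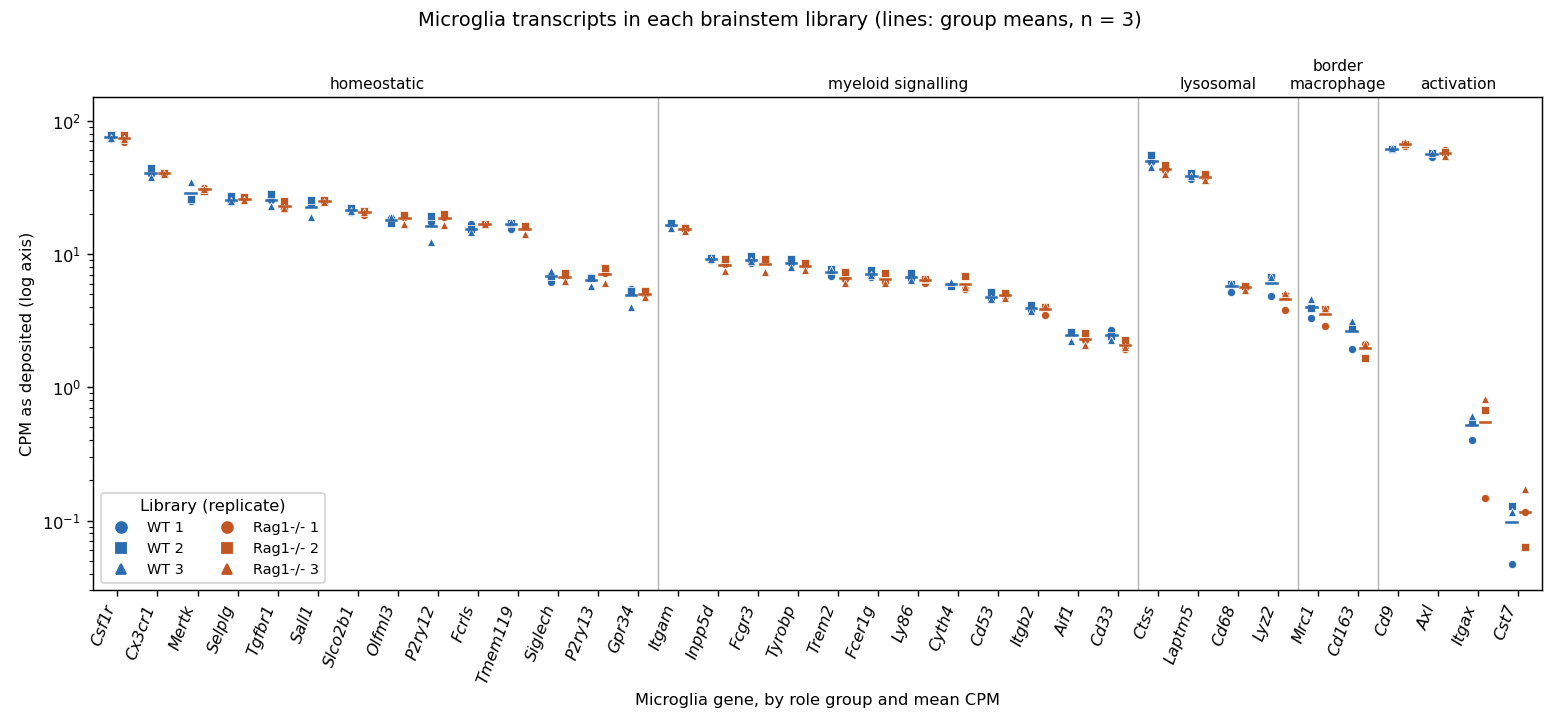
Level of each microglia gene in each library, in CPM as deposited on a log axis, with genes on the horizontal axis grouped by role and ordered by mean, blue points for WT, orange points for Rag1-/-, marker shapes for replicates and short lines for the means of 3 libraries. The 2 genotypes sit side by side for nearly all genes, and the order along the axis is by CPM not scaled by length, so it is no ranking between genes.

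Levels of the members were ranked against each other per kb of the longest annotated transcript. On that scale the most abundant members were Cd9 (52.2 CPM per kb over all 6 libraries), the lysosomal protease Ctss (34.3), the survival receptor Csf1r (15.8), the lysosomal membrane protein Laptm5 (14.7) and the signalling adaptor Tyrobp (14.0). The homeostatic markers Cx3cr1, P2ry12 and Tmem119 were at 9.0, 7.42 and 7.17 CPM per kb. At the other end were the border macrophage genes Mrc1 (0.701 CPM per kb) and Cd163 (0.515), the receptor Cd33 (0.395), then Itgax (0.132) and Cst7 (0.108), the genes most characteristic of activated microglia. The longest transcript of Cd33 (5728 bases) exceeds the gene's span in the deposited table (chr7:43527456-43533171), so its place on this scale is uncertain. Thus homeostatic microglial markers were readily detected in both genotypes, while the defining activation markers Itgax and Cst7 were at 28 reads or fewer in every library. Cd9 and Axl, which are counted here among the activation genes, are also expressed by other brain cells, Cd9 in particular by oligodendrocytes.

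Among the 14 homeostatic genes, none had a p of at most 0.05. A log2 fold change below 0 was found for 6 and above 0 for 8, beside 67.7% of all genes below 0. The group median was 0.030 (0.074 and 0.076 under the other scalings). With a library left out it ran from -0.0079 without Rag1-/- replicate 2 to 0.061 without Rag1-/- replicate 3, so the group had no stable direction. The interval of every one of the 14 lay within 1.5-fold. Csf1r, the receptor for CSF1 and IL-34, measured 73.2, 78.1 and 74.4 CPM for WT replicates 1, 2 and 3 and 69.6, 78.6 and 72.9 CPM for the Rag1-/- replicates (log2 fold change -0.030, standard error 0.054, adjusted p = 0.846). Cx3cr1, the receptor for fractalkine, was at 39.9, 44.1 and 37.7 CPM in WT and at 40.5, 40.8 and 39.7 CPM in Rag1-/- libraries (log2 fold change -0.0045, standard error 0.061, adjusted p = 0.982). For both receptors the libraries were interleaved, and both signs reversed under the other scalings. The interval for Cx3cr1 ran from -0.14 to 0.13 and that for Csf1r from -0.15 to 0.093 on the log2 scale.

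The purinergic receptor P2ry12 (chr3:59216271-59262985, mm10, minus strand), through which microglia extend processes towards released ADP, measured 17.3, 19.4 and 12.3 CPM in WT and 18.8, 20.1 and 16.5 CPM in Rag1-/- libraries (log2 fold change 0.19, standard error 0.16, adjusted p = 0.642). Its neighbour P2ry13, an ADP receptor 5.39 kb away on the same strand of chromosome 3, was at 6.77, 6.63 and 5.72 CPM in WT and at 7.22, 7.86 and 6.04 CPM in Rag1-/- libraries (log2 fold change 0.14, standard error 0.12, adjusted p = 0.675). Gpr34, a lysophospholipid receptor, was at 5.50, 5.32 and 4.00 CPM in WT and at 5.03, 5.29 and 4.73 CPM in Rag1-/- libraries (log2 fold change 0.034, standard error 0.13, adjusted p = 0.939). All 3 receptors were lowest in WT replicate 3, and among the other 5 libraries the genotypes overlapped for P2ry12 and P2ry13, while both WT libraries lay above the Rag1-/- libraries for Gpr34. Sall1, a zinc finger factor that maintains microglial identity, had the same low library, with 23.6, 25.4 and 19.1 CPM in WT and 25.4, 25.6 and 24.6 CPM in Rag1-/- brainstems (log2 fold change 0.16, standard error 0.10, adjusted p = 0.542). P2ry12 and P2ry13 lie within the gene Med12l on the opposite strand, which was at 33.0, 34.6 and 35.3 CPM in WT and at 29.4, 29.9 and 29.1 CPM in Rag1-/- libraries, and Gpr34 lies within Cask, so these values are uncertain where reads were counted without strand, which is not stated.

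WT replicate 3 is also the WT library that matches the Rag1-/- libraries in sex-linked transcripts, and several homeostatic genes moved when it was left out or set alone. Without it, the log2 fold change was 0.0015 for P2ry12, 0.042 for Sall1, -0.11 for Gpr34 and 0.07 for Fcrls. With a term for high Xist, which sets WT replicate 3 alone against the 3 Rag1-/- libraries, it was 0.58 for P2ry12, 0.40 for Sall1, 0.32 for Gpr34 and 0.21 for Fcrls. Each of these genes had its lowest value in WT replicate 3, so the fit restates that library's low values. Mertk, a receptor for the clearance of apoptotic cells, showed the opposite pattern, with 25.2, 25.7 and 34.6 CPM in WT and 31.2, 29.7 and 30.7 CPM in Rag1-/- libraries (log2 fold change 0.11, standard error 0.11, adjusted p = 0.703). Its highest value was WT replicate 3, with all Rag1-/- libraries between that value and the other WT libraries, and its log2 fold change was 0.26 without this library and -0.18 with the Xist term. The part of sex in these differences was not tested beyond this 1 library.

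Fcrls (chr3:87250965-87263524, mm10, minus strand), an Fc receptor-like scavenger receptor, was the homeostatic gene whose groups did not overlap, with 16.7, 15.4 and 14.5 CPM in WT and 16.9, 16.9 and 16.7 CPM in Rag1-/- libraries (log2 fold change 0.12, standard error 0.066, adjusted p = 0.519, exact permutation p = 0.1, the smallest that 3 against 3 allows). WT replicate 1 and the lowest Rag1-/- library both round to 16.7 CPM. Tmem119, a membrane protein used as a microglia marker, was at 15.4, 17.2 and 17.4 CPM in WT and at 15.9, 16.3 and 14.2 CPM in Rag1-/- libraries (log2 fold change -0.11, standard error 0.079, adjusted p = 0.612). Tgfbr1, the type I receptor for TGF-beta, was at 25.3, 28.0 and 23.1 CPM in WT and at 21.9, 25.2 and 22.0 CPM in Rag1-/- libraries (log2 fold change -0.15, standard error 0.085, adjusted p = 0.525). Both overlapped, although the lowest library was a Rag1-/- one in each case. The lectin Siglech was at 6.16 to 7.39 CPM in WT and 6.32 to 7.19 CPM in Rag1-/- libraries, the selectin ligand Selplg at 24.4 to 27.4 and 25.3 to 26.9 CPM, the secreted protein Olfml3 at 17.0 to 18.8 and 16.9 to 19.7 CPM, and the organic anion transporter Slco2b1 at 20.6 to 22.1 and 19.6 to 21.2 CPM. Selplg lies 17.4 kb from Tmem119 on chromosome 5, on the same strand. These 4 genes had log2 fold changes between -0.052 and 0.035.

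**Figure D2:**
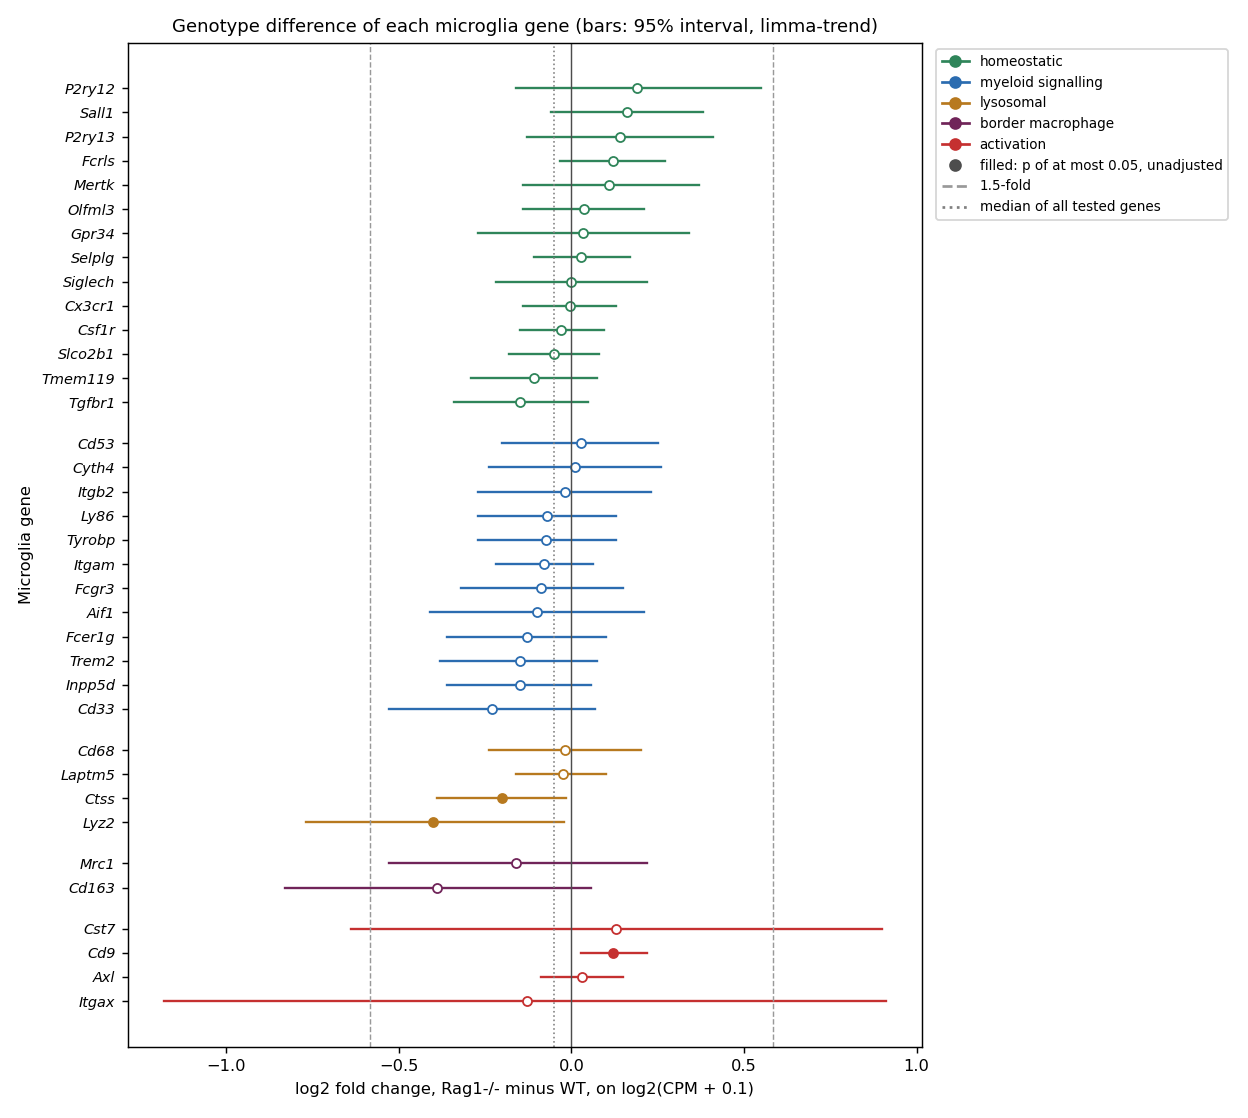
Log2 fold change of each microglia gene (Rag1-/- minus WT, horizontal axis, on log2(CPM + 0.1)) with its 95% limma-trend interval, coloured by role, filled where the unadjusted p is at most 0.05, with dashed lines at 1.5-fold and a dotted line at the median of all genes tested. Only Lyz2, Ctss and Cd9 are filled, and the intervals of Itgax and Cst7 are the widest.

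The 12 myeloid signalling genes, which encode integrins, immune receptors and their adaptors, also had no p of at most 0.05. In this group, 10 genes had a log2 fold change below 0 and 2 above, beside 67.7% of all genes below 0. The group median was -0.084 as deposited (-0.051 for all genes), and -0.022 and -0.039 under quantile normalization and median-of-ratios rescaling. When each library was omitted it ran from -0.13 without Rag1-/- replicate 2 to -0.042 without WT replicate 2. Trem2, a lipid-sensing receptor, was at 6.87, 7.69 and 7.56 CPM in WT and at 6.44, 7.38 and 6.06 CPM in Rag1-/- libraries (log2 fold change -0.15, standard error 0.10, adjusted p = 0.563). Its adaptor Tyrobp was at 8.52, 9.15 and 7.99 CPM in WT and at 8.29, 8.59 and 7.52 CPM in Rag1-/- libraries (log2 fold change -0.073, standard error 0.088, adjusted p = 0.769). Aif1, which encodes the microglial protein Iba1, was at 2.60, 2.58 and 2.21 CPM in WT and at 2.25, 2.57 and 2.08 CPM in Rag1-/- libraries (log2 fold change -0.10, standard error 0.14, adjusted p = 0.802). For all 3 the lowest library was Rag1-/- replicate 3 and the groups overlapped. The interval for Aif1 ran from -0.41 to 0.21 on the log2 scale.

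The largest difference of the group was that of Cd33, a receptor for sialic acid, at 2.67, 2.41 and 2.27 CPM in WT and 1.94, 2.28 and 1.99 CPM in Rag1-/- libraries (log2 fold change -0.23, standard error 0.13, adjusted p = 0.519). The groups met at 2.27 and 2.28 CPM. The phosphatase Inpp5d was at 9.04, 9.41 and 9.20 CPM in WT and 8.43, 9.12 and 7.40 CPM in Rag1-/- libraries (log2 fold change -0.15, standard error 0.091, adjusted p = 0.542). The integrin chains of complement receptor 3 were at 15.6 to 17.1 and 14.9 to 15.9 CPM for Itgam and at 3.74 to 4.16 and 3.49 to 4.07 CPM for Itgb2 in WT and Rag1-/- libraries, respectively. The remaining members were the Fc receptor gamma chain Fcer1g (-0.13 on the log2 scale), the IgG receptor Fcgr3 (-0.087), the Toll-like protein partner Ly86 (-0.070), the exchange factor Cyth4 (0.0093) and the tetraspanin Cd53 (0.027).

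The 4 lysosomal genes had log2 fold changes below 0 as deposited, as did 67.7% of all genes. Their median was -0.11 (-0.051 for all genes), and -0.066 and -0.069 under the other scalings, where Cd68 and Laptm5 turned above 0. With a library left out the median ran from -0.16 without Rag1-/- replicate 2 to -0.059 without WT replicate 2. Ctss, encoding cathepsin S (chr3:95526786-95556405, mm10, plus strand), measured 49.0, 55.0 and 45.2 CPM for WT replicates 1, 2 and 3 and 43.0, 46.6 and 39.9 CPM for the Rag1-/- replicates. The highest Rag1-/- library lay above the lowest WT library. The means were 49.8 ± 4.96 and 43.2 ± 3.38 CPM (SD, n = 3), and the log2 fold change was -0.20 (standard error 0.082, 95% interval -0.39 to -0.017, limma-trend p = 0.0361, adjusted p = 0.406; exact permutation p = 0.2). Lyz2, encoding the macrophage lysozyme (chr10:117277541-117282272, mm10, minus strand), was at 4.81, 6.77 and 6.74 CPM in WT and at 3.80, 4.86 and 5.14 CPM in Rag1-/- libraries. WT replicate 1 lay between the Rag1-/- values. The means were 6.11 ± 1.12 and 4.60 ± 0.706 CPM (SD, n = 3), and the log2 fold change was -0.40 (standard error 0.16, 95% interval -0.77 to -0.021, limma-trend p = 0.0405, adjusted p = 0.418; exact permutation p = 0.3). Neither p stayed at or under 0.05 with quantile normalization (log2 fold change -0.15 for Ctss and -0.33 for Lyz2), and Ctss was at -0.069 with the Xist term. Lyz2 was at -0.55 with that term. With a library left out, Ctss ran from -0.27 without WT replicate 3 to -0.13 without WT replicate 2, and Lyz2 from -0.56 without WT replicate 1 to -0.27 without Rag1-/- replicate 1.

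Neutrophils and monocytes also express Lyz2. A p of at most 0.05 was found for 6 of the 9 granulocyte markers tested, all lower in Rag1-/- libraries (9.29% of all genes). The median log2 fold change of the 9 was -1.20. Summed over all 10 granulocyte markers listed, tested or not, the level was 6.47, 14.4 and 21.0 CPM for WT replicates 1, 2 and 3. In the Rag1-/- replicates it was 4.04, 5.23 and 7.46 CPM. S100a9 alone was at 1.98, 4.61 and 6.96 CPM against 0.982, 1.27 and 1.94 CPM. Lyz2 was lowest in the same library of each genotype as this sum, and the part of granulocyte RNA in its difference was not tested. Lyz1, a close paralog of Lyz2 on chromosome 10 whose reads can be shared with it, was at 0.312, 0.442 and 0.506 CPM in WT and 0.127, 0.213 and 0.155 CPM in Rag1-/- libraries (log2 fold change -0.97, limma-trend adjusted p = 0.335). Of the other lysosomal members, Laptm5 was at 36.8, 40.6 and 38.3 CPM in WT and 37.7, 39.9 and 36.0 CPM in Rag1-/- libraries (log2 fold change -0.026, standard error 0.057, adjusted p = 0.880). Cd68, a glycoprotein of macrophage lysosomes, was at 5.22, 5.94 and 6.01 CPM in WT and 5.78, 5.80 and 5.35 CPM in Rag1-/- libraries (log2 fold change -0.018, standard error 0.10, adjusted p = 0.957). The groups overlapped for both genes.

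The border macrophage genes were low and variable. Mrc1, the mannose receptor, was at 3.33, 3.96 and 4.63 CPM in WT and at 2.86, 3.87 and 3.96 CPM in Rag1-/- libraries (log2 fold change -0.16, standard error 0.17, adjusted p = 0.735). Cd163, the scavenger receptor for haemoglobin complexes, was at 1.94, 2.80 and 3.13 CPM in WT and at 2.11, 1.65 and 2.11 CPM in Rag1-/- libraries (log2 fold change -0.39, standard error 0.20, adjusted p = 0.478). Both genes were highest in WT replicate 3, and WT replicate 1 lay among the Rag1-/- libraries for both. Their median was -0.27, but -0.52 with the Xist term, and Cd163 was at -0.58 without WT replicate 1 and -0.25 without WT replicate 3. A further 13 border macrophage genes had a median of -0.0035, with 1 gene at a p of at most 0.05: the chemokine Ccl24 was at 0.0709, 0.108 and 0.0576 CPM in WT and at 0.289, 0.190 and 0.171 CPM in Rag1-/- libraries (log2 fold change 0.82, limma-trend adjusted p = 0.374), levels of a few reads.

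Of the 4 activation genes, 3 had a log2 fold change above 0 and 1 had a p of at most 0.05 (11.6% of all genes did). Their median of 0.077 held no direction across settings, with 0.12 under both other scalings, 0.028 with a pseudocount of 1, -0.013 with the Xist term and -0.033 without WT replicate 1. The gene with a p of at most 0.05 was Cd9, a tetraspanin (chr6:125460266-125494755, mm10, minus strand) and the member with the smallest p. It measured 61.3, 60.9 and 62.0 CPM for WT replicates 1, 2 and 3 and 64.7, 66.9 and 69.0 CPM for the Rag1-/- replicates, so every Rag1-/- library was above every WT library. The means were 61.4 ± 0.561 and 66.9 ± 2.12 CPM (SD, n = 3), a 1.09-fold difference (log2 fold change 0.12, standard error 0.042, 95% interval 0.028 to 0.22, limma-trend p = 0.0173, adjusted p = 0.372; exact permutation p = 0.1). Beside it, all 6 oligodendrocyte markers tested were higher in every Rag1-/- library, a separation shown by 3.98% of all genes. Each had a p of at most 0.05 (2.27% of all genes were higher at this p) and none an adjusted p under 0.05. The median log2 fold change of these markers was 0.26. Their summed level was 18700, 21800 and 19800 CPM in the WT replicates and 25600, 24300 and 24200 CPM in the Rag1-/- replicates. The log2 fold change of Cd9 ran from 0.10 without Rag1-/- replicate 3 to 0.15 without Rag1-/- replicate 1. Its unadjusted p was no longer at or under 0.05 without Rag1-/- replicate 3, nor with the Xist term (log2 fold change 0.11). Whether oligodendrocyte RNA takes part in the Cd9 difference was not tested.

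For the other activation genes the 95% interval of the difference held 0. Axl, a receptor of the same family as Mertk, was at 53.8, 57.4 and 57.7 CPM in WT and at 60.0, 58.2 and 54.5 CPM in Rag1-/- libraries (log2 fold change 0.031, standard error 0.052, adjusted p = 0.836). Itgax, the CD11c integrin chain that lies 11.1 kb from Itgam on chromosome 7, was at 0.40, 0.55 and 0.613 CPM in WT and at 0.148, 0.680 and 0.810 CPM in Rag1-/- libraries, or about 17, 26, 21, 5, 21 and 28 reads. Rag1-/- libraries held both the lowest and the highest value of Itgax, and its interval ran from -1.18 to 0.91 on the log2 scale. Cst7, the protease inhibitor cystatin F, was at 0.0473, 0.129 and 0.115 CPM in WT and at 0.116, 0.0635 and 0.171 CPM in Rag1-/- libraries, or about 2, 6, 4, 4, 2 and 6 reads. Its interval ran from -0.64 to 0.90 on the log2 scale. Without Rag1-/- replicate 1 the log2 fold change of Itgax was 0.46, and without WT replicate 1 that of Cst7 was -0.066.

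The libraries of each genotype differed across the 36 members. WT replicate 2 held the highest value of 16 members (44.4%, beside 18.9% of all genes) and the lowest of 1, with a median deviation of 0.10 on the log2 scale from each gene's mean. Rag1-/- replicate 2 was also high (median deviation 0.061, the highest for 7 members, 19.4% beside 10.8% of all genes), and Rag1-/- replicate 3 was low (-0.071, the lowest for 11 members, 30.6% beside 17.1%). Rag1-/- replicate 1 was the lowest for 10 members, 27.8% beside 24.9% of all genes. For all genes tested the median deviations of WT replicate 2 and Rag1-/- replicates 2 and 3 were 0.019, -0.015 and -0.020. Among the myeloid signalling genes, WT replicate 2 was highest for 9 of 12 and Rag1-/- replicate 3 lowest for 7 of 12, and among the lysosomal genes WT replicate 2 was highest for 3 of 4. Among the homeostatic genes, Rag1-/- replicate 2 was highest for 6 of 14 and WT replicate 3 was lowest for 6 and highest for 3. The SD within a genotype on the log2 scale had a median of 0.11 over the members, from 0.034 for Cd9 to 0.75 for Itgax, compared with 0.095 for the 4790 genes tested in the middle of the members' range of levels.

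**Figure D3:**
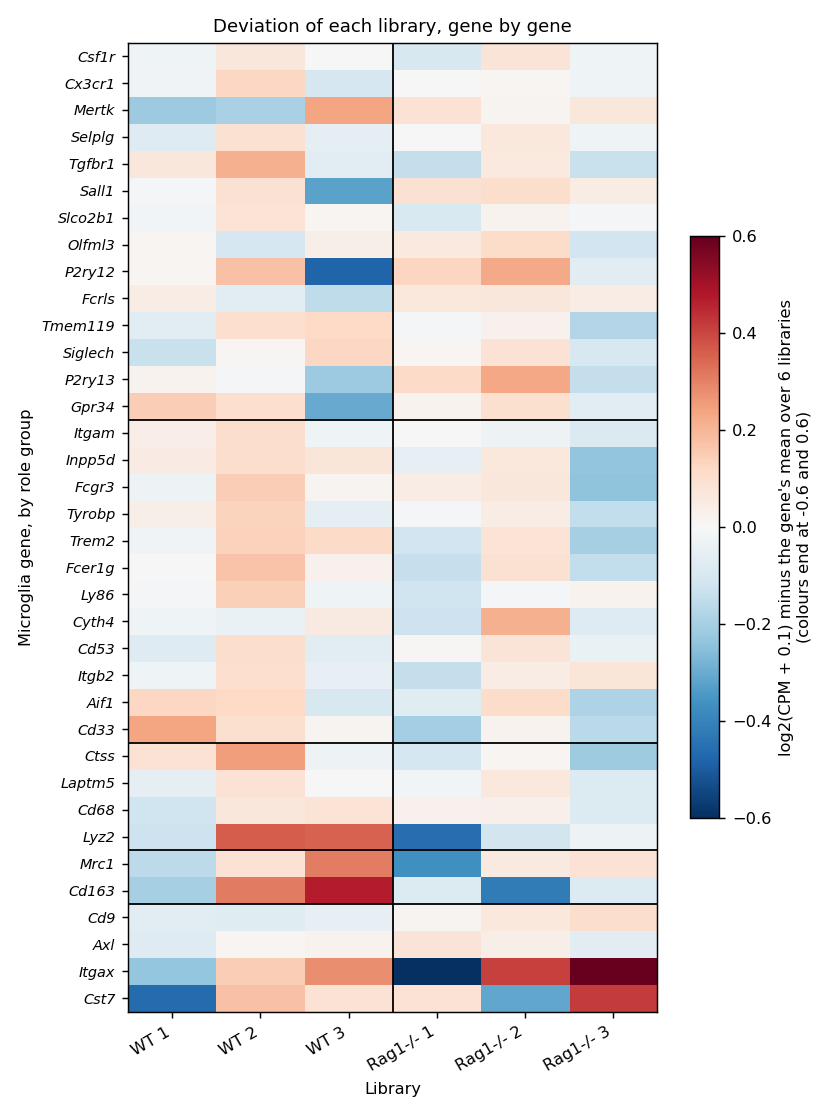
Deviation of each library (columns) from each gene's mean over the 6 libraries (rows, grouped by role), in log2(CPM + 0.1), with red above and blue below the mean. WT replicate 2 is above the mean for most rows, WT replicate 3 is blue for P2ry12, Sall1, Gpr34 and P2ry13 and red for Mertk, Mrc1 and Cd163, and no role group is of 1 colour within a genotype.

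Related genes were examined as lists beside the members. Of 130 tested, 18 (13.8%, beside 11.6% of all genes) had a p of at most 0.05, 15 lower (9.29% of all genes were lower) and 3 higher (2.27%), and none had an adjusted p under 0.05. Among 37 other microglia genes, 3 were lower and 1 higher, with a median of -0.030. The kinase Syk, which acts downstream of Tyrobp, was at 2.97, 3.68 and 3.62 CPM in WT and 2.63, 2.60 and 2.25 CPM in Rag1-/- libraries (log2 fold change -0.44, adjusted p = 0.340). The leukocyte phosphatase Ptprc was at 2.43, 2.82 and 2.5 CPM against 1.85, 2.22 and 1.99 CPM (-0.34, adjusted p = 0.395), while the complement subunit C1qc (-0.12) was lower with overlap and the adaptor Abi3 was at 11.6, 11.7 and 10.8 CPM against 12.8, 12.4 and 14.2 CPM (0.20, adjusted p = 0.389). For Syk, Ptprc and Abi3 the genotypes did not overlap.

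Of 13 transcription factors of myeloid cells, 3 (23.1%, beside 11.6% of all genes) had a p of at most 0.05, all lower (9.29% of all genes). The list median was -0.071, beside -0.051 for all genes. Cebpa was at 10.2, 9.13 and 11.2 CPM in WT and 8.26, 7.83 and 7.66 CPM in Rag1-/- libraries (log2 fold change -0.35, standard error 0.091, adjusted p = 0.319). Runx1 (-0.43) was also lower in every Rag1-/- library. Spi1, which encodes PU.1 and is named here for the promoter motif and chosen with its values known, measured 3.00, 2.84 and 3.13 CPM in WT and 2.92, 3.52 and 2.88 CPM in Rag1-/- libraries (log2 fold change 0.047, 95% interval -0.23 to 0.33). Its groups overlapped.

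The ligands that act on the receptors above were examined in a list of 19 genes for microglial ligands and TGF-beta signalling. Of these, 3 (15.8%, beside 11.6% of all genes) had a p of at most 0.05, all lower (9.29% of all genes). The list median was -0.080, beside -0.051 for all genes. Il34, a ligand of Csf1r made by neurons, was at 17.5, 17.5 and 18.8 CPM in WT and 14.9, 14.9 and 17.1 CPM in Rag1-/- libraries (log2 fold change -0.20, standard error 0.074, adjusted p = 0.390). Every Rag1-/- library was below every WT library. The other ligand, Csf1, chosen with its values known, measured 28.7, 29.4 and 28.8 CPM in WT and 27.4, 28.7 and 29.6 CPM in Rag1-/- libraries (log2 fold change -0.021, 95% interval -0.13 to 0.093). The inhibitory ligand Cd200 (-0.18) and Tgfb3 (-0.29) were lower with p of at most 0.05. Cx3cl1, the ligand of Cx3cr1, and Tgfb1, both also chosen after their values were seen, had log2 fold changes of -0.080 and -0.040 with adjusted p values of 0.696 and 0.921.

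Among 27 other lysosomal genes, 3 were lower with a p of at most 0.05 (among them the protease Ctsz -0.15 and the tetraspanin Cd63 -0.11) and 1 was higher, Npc2, a lysosomal cholesterol carrier at 112, 124 and 116 CPM in WT and 132, 129 and 128 CPM in Rag1-/- libraries (0.15). Of 23 other activation genes, 21 were tested and 3 (14.3%) had a p of at most 0.05, all lower, with a median of -0.15. Across all genes the share at this p was 11.6%, with 9.29% lower, and the median was -0.051. The adhesion receptor Cd44 was at 4.44, 4.95 and 6.38 CPM in WT and at 3.21, 2.82 and 3.02 CPM in Rag1-/- libraries (log2 fold change -0.77, standard error 0.14, adjusted p = 0.216). It was lower in every Rag1-/- library, as were the galectin Lgals3 (-0.65) and the oxidase subunit Cybb (-0.62), which neutrophils and monocytes also express. The granulocyte markers given above were lower as well, as were 2 of the 5 monocyte markers tested, Chil3 (-1.40) and Ly6c2 (-1.10), which had a p of at most 0.05 at levels of 0.776 CPM or less, and their part in the differences was not tested. Within the genotypes, Cybb (0.826, 1.08 and 1.44 CPM in WT, 0.520, 0.760 and 0.769 CPM in Rag1-/- libraries) had the same order of libraries as the granulocyte sum in both, and Cd44 had it in WT alone. Lgals3 was highest in WT replicate 1 (1.42 CPM) and Rag1-/- replicate 1 (0.924 CPM), where the granulocyte sum was lowest. The defining monocyte marker Ccr2, named after its values were seen, had a log2 fold change of 0.048 at 0.193 to 0.270 CPM. The other cell type lists had 1 lymphocyte gene (Nkg7, -0.90, at 0.259 CPM or less), 1 endothelial gene (Cdh5, -0.16) and 1 astrocyte gene (Aqp4, 0.19) with a p of at most 0.05, and no neuron gene (Snap25 -0.033 and Eno2 -0.030, the 2 with the highest mean in CPM not scaled by length).

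**Figure D4:**
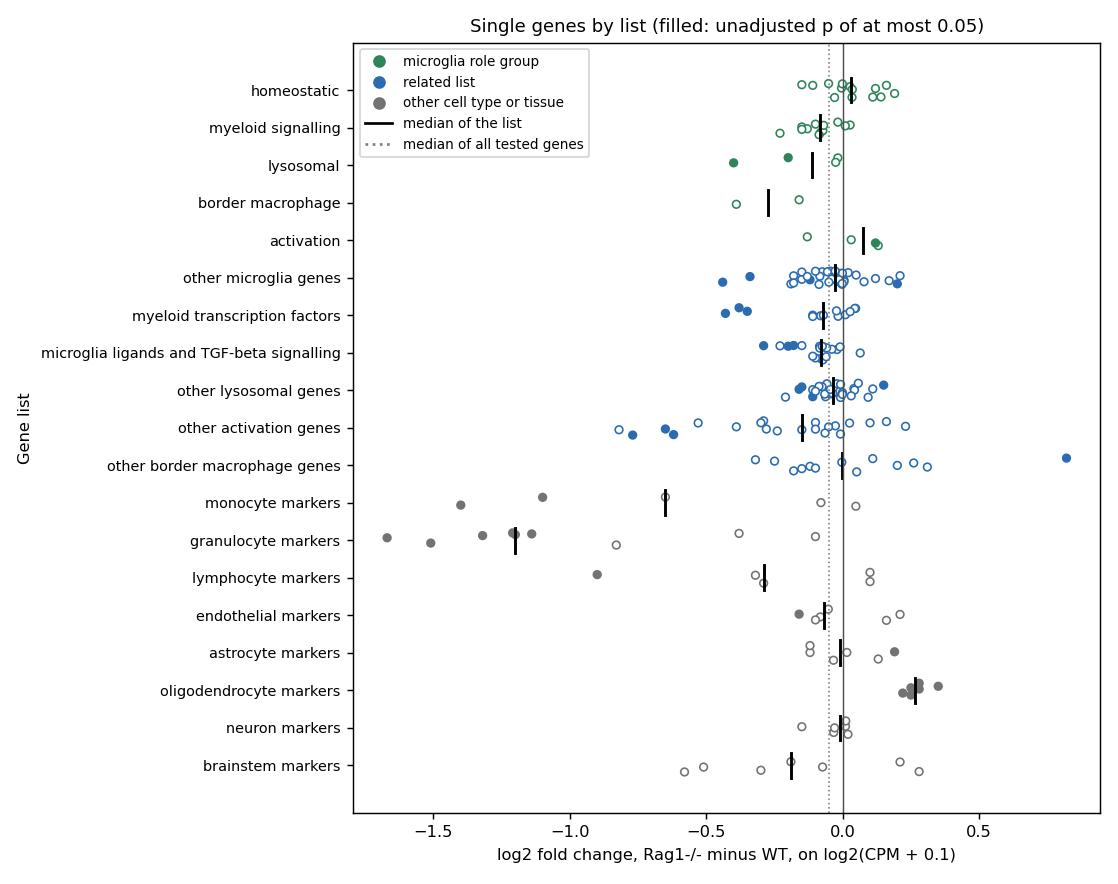
Log2 fold change (Rag1-/- minus WT, horizontal axis, on log2(CPM + 0.1)) of every gene tested in the microglia role groups, the related lists and the lists for other cell types and for brainstem (rows), filled where the unadjusted p is at most 0.05, with a bar at each list's median and a dotted line at the median of all genes tested. The microglia role groups have medians between -0.27 and 0.077, whereas the granulocyte markers have a median of -1.20 and the oligodendrocyte markers of 0.26.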

How the data were processed

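The authors demultiplexed the reads with bcl2fastq, aligned them to mm10 with STAR 2.5.3a, assigned them to RefSeq genes with Partek Flow, and deposited CPM values, that is gene counts per library size, with 0.0001 as the lowest value. Whether counting used strand and how genes were filtered are not given in the sources used here. Listed genes hold 79.1% to 80.4% of each library's total. The worth of 1 read in CPM was taken from the spacing of low values, of which 85.1% to 86.7% were whole multiples within 0.1 read, so read counts were not recovered, no test on counts was run, and depths are estimates that cover counting error only.

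From the deposited values log2(CPM + 0.1) was computed, which understates the change of low genes. A mean of 0.1 CPM or more was required, which left 16762 genes for a two-sided limma-trend fit (limma 3.58.1, R 4.3.3) with Benjamini-Hochberg adjustment over all of them, and 1296 genes were not tested. The test was tested on simulated data. Exact two-sided permutation tests of CPM (SciPy 1.17.1) were run for single genes, with a smallest p of 0.1. The labels number 3 libraries for each genotype, each taken here as 1 independent mouse, and name no batch. CPM per kb used the longest GENCODE M21 transcript.

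The members and lists were chosen with earlier results of these data known. All members were named. In other lists the genes named were those with a p of at most 0.05 (at most 6 by smallest p), other genes being marked as chosen after their values were seen. Some genes that this rule names are not reported here. Where a list had none, the rule named the 2 genes with the highest mean. Coordinates are those of the deposited table with the end given as 1 base before its stop, as RefSeq genes with the same start bear out for 70.9% of 10271. The alternatives were pseudocounts of 1 and 0.01, no filter, a mean of at least 1 CPM, quantile normalization, median-of-ratios rescaling, limma without trend, a replicate block, a term for high Xist (over 100 CPM), and leaving out each library.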

Additional observations from a re-analysis of the deposited data

How the results depend on the processing

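No microglia gene passed an adjusted p under 0.05 in any of the 15 alternatives (0 of 537 values), and 17 of 36 genes kept their direction in every one. With each library left out in turn, between 1 and 4 genes had a p of at most 0.05 (6.63% to 12.1% of all genes did), compared with 3 when all were kept. The lowest, 1, was reached without Rag1-/- replicate 1 and without Rag1-/- replicate 3. Between 4 (without Rag1-/- replicate 1) and 10 (without Rag1-/- replicate 2) genes then had groups that did not overlap (25.1% and 29.5% of all genes did, compared with 18.4% when all libraries were kept), and 11 (without Rag1-/- replicate 1) to 20 genes of the related lists had a p of at most 0.05. With the term for high Xist, 7 microglia genes had a p of at most 0.05 (Cd163, Lyz2 and Mertk lower, Fcrls, Gpr34, P2ry12 and Sall1 higher; 16.3% of all genes did) and the border macrophage median was -0.52. That fit rests on WT replicate 3 as the single WT library of its kind. The replicate numbers did not pair the libraries: same-numbered libraries had correlations of their deviations of 0.0926, -0.22 and -0.0183, and 1 of 6 libraries correlated best with its own number. With the replicate block, 3 microglia genes and 16 genes of the related lists had a p of at most 0.05 and 0 microglia genes had an adjusted p under 0.05.

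Of 322 values for single genes with all libraries kept, 24 changed sign. The changes of filter, the fit without trend and the replicate block leave a log2 fold change as it was. No sign could change under those settings, so the share of 322 understates how often a sign moved where it could. The cause of the changes was not tested beyond the shift in the median of all genes given in the report. With quantile normalization these log2 fold changes were Cx3cr1 0.044, Siglech 0.061, Slco2b1 0.00068, Csf1r 0.012, Aif1 0.0011, Itgb2 0.057, Cd68 0.049, Laptm5 0.019 and Itgax 0.0050. With median-of-ratios rescaling they were Cx3cr1 0.041, Siglech 0.044, Csf1r 0.015, Itgb2 0.027, Cd68 0.027 and Laptm5 0.019. With the Xist term they were Cx3cr1 0.10, Olfml3 -0.019, Mertk -0.18, Aif1 0.048, Itgb2 0.040, Tyrobp 0.022, Cyth4 -0.050, Cst7 -0.020 and Axl -0.0055. With a library left out, 28 of 215 values changed sign. The log2 fold changes then ranged from -0.055 to 0.057 for Cx3cr1, -0.11 to 0.12 for Gpr34, -0.069 to 0.060 for Siglech, -0.0051 to 0.078 for Selplg, -0.011 to 0.10 for Olfml3, -0.077 to 0.010 for Csf1r, -0.058 to 0.049 for Itgb2, -0.14 to 0.011 for Fcgr3, -0.0045 to 0.087 for Cd53, -0.095 to 0.073 for Cyth4, -0.082 to 0.019 for Cd68, -0.063 to 0.011 for Laptm5, -0.066 to 0.32 for Cst7, -0.48 to 0.46 for Itgax and -0.00068 to 0.071 for Axl. Cst7 was at 2 to 6 reads and Itgax at 5 to 28 reads in a library, and the shares of depth and of spread between mice in their wide intervals were not separated. The activation median was -0.013 with the Xist term and -0.033 to 0.13 with a library left out, and the homeostatic median -0.0079 to 0.061.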
